A study of Drosophila melanogaster with 2 samples.

Results

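Glutathione S-transferases and UDP-glycosyltransferases are enzyme families that make foreign and endogenous lipophilic compounds more soluble. Glutathione S-transferases (Gst genes) join the tripeptide glutathione to electrophilic compounds, among them insecticides and products of lipid peroxidation. UDP-glycosyltransferases (Ugt genes) are membrane enzymes of the endoplasmic reticulum that transfer a sugar, in insects mostly glucose, from a UDP-sugar to lipophilic molecules. Many members are expressed in the fat body, midgut and Malpighian tubules of the fly, and part of the Gst genes are known targets of Cnc, the fly counterpart of the transcription factor Nrf2, which Keap1 holds back. The members were all genes whose symbol in the annotation of the array begins with Gst and a capital letter or with Ugt and a digit. This gave 51 of 12573 named genes, on 53 of 18952 probe sets, with 34 Gst genes and 17 Ugt genes. The rule used symbols and no measured value, but it was set with earlier results of these data known. In the gene ontology columns of the array annotation, all 34 Gst genes carried the term glutathione transferase activity and all 17 Ugt genes the term glucuronosyltransferase activity.

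RNA of whole mid-third instar larvae, harvested at the feeding stage, was hybridised to 1 Affymetrix array for each genotype. Each array had 20 pooled larvae, all labelled as female. The paper describes the Ck1alphaRNAi larvae of the microarray as diabetic and non-feeding, with raised hemolymph glucose and an aversion to sucrose. Ck1alphaRNAi larvae came from Dcg-Gal4 mothers and UAS-Ck1alphaRNAi fathers, and carry a hairpin against the Wnt and Hedgehog pathway kinase Ck1alpha. Control larvae came from Dcg-Gal4 mothers and w1118 fathers. Both genotypes therefore carry the Dcg-Gal4 driver, which is active in fat body and blood cells, and the controls carry no UAS hairpin. Larvae were grown for 6 days according to the labels, while the study's methods state that the Ck1alphaRNAi cultures were started 1 day before the controls. Genotype, feeding, glucose level, developmental stage, culture time and array cannot be told apart in these data. The arrays are not replicated, so that no difference below was tested against biological error and no p-value is given.

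Values are linear MAS5 signals, the brightness that the software computes for a probe set. A ratio always divides the Ck1alphaRNAi signal by the control signal. A gene counted as detected if either array gave it a signal of 100 or more, and where it had several probe sets the brightest on average stood for it. The 17 tag control probe sets of the array, which match no fly gene, reached at most 53.3 (Ck1alphaRNAi array) and 33.1 (control array). Where a gene lay under that level on 1 array, the level replaced its signal and the fold is a lower bound. Between detected probe sets of the same gene, over 432 genes, the log2 ratio had an SD of 0.41, or 1.33-fold. This SD is pooled over all signal levels, and it can include differences between transcripts of a gene as well as technical disagreement. It comes from the same 2 RNA samples and does not measure variation between larvae. The signal of Ck1alpha itself was 2055 in Ck1alphaRNAi larvae and 2665 in controls, a ratio of 0.771 in RNA of whole larvae. Its log2 ratio of -0.37 was within that spread between probe sets. All 7 fat body markers were at least 2-fold lower in Ck1alphaRNAi larvae, and their summed signal was 11660.5 against 131908. All 6 salivary gland markers were also at least 2-fold lower, with a summed signal of 23221.5 against 108793. The paper describes most of its hyperglycemic lines as slightly delayed in development. In RNA of whole larvae, fewer cells of a type, less RNA per cell and a difference in developmental stage cannot be told apart. This holds for every gene below.

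Most detected members differed little between the genotypes, and the larger differences were mainly toward higher signals in Ck1alphaRNAi larvae. Of the 51 members, 41 were detected. At least 2-fold higher signals were seen for 4 of the 41, which were GstD5, GstD7, GstE6 and Ugt86Da, beside 2.83% of all 8982 detected genes. Ugt86Dj was the 1 member at least 2-fold lower, beside 6.97% of all detected genes. A difference of 2-fold in either direction was thus seen for 5 of 41 members, beside 9.80% of detected genes. A higher signal of any size was seen for 28 members, or 68.3%, beside 47.7% of detected genes. Under the other settings tried the share of members ran from 62.7% to 73.2%, and that of all genes from 46.0% to 51.4%. The median log2 ratio of the members was 0.18, and that of all detected genes was -0.02. Of the 41 members, 23 (56.1%) differed by less than this spread within genes, beside 67.7% of all detected genes. GstD3, GstD5, GstD7, GstE6, Ugt37b1 and Ugt86Da had log2 ratios above 0.73, the 95th percentile of detected genes, and 0 members lay below the 5th percentile of -1.16.

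Among the members with a mean signal of 100 to 500, 1 of 18 was 2-fold higher and 1 was 2-fold lower, while 2.54% and 7.77% of all genes in that range were so. Between 500 and 2000, 3 of 12 members were 2-fold higher and 0 lower, beside 2.44% and 3.65% of genes. Of the 11 members with a mean signal of 2000 or more, none passed 2-fold in either direction, beside 3.23% and 4.26% of genes. These 11 included GstD1, GstE12 and GstS1.

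**Figure D1:**
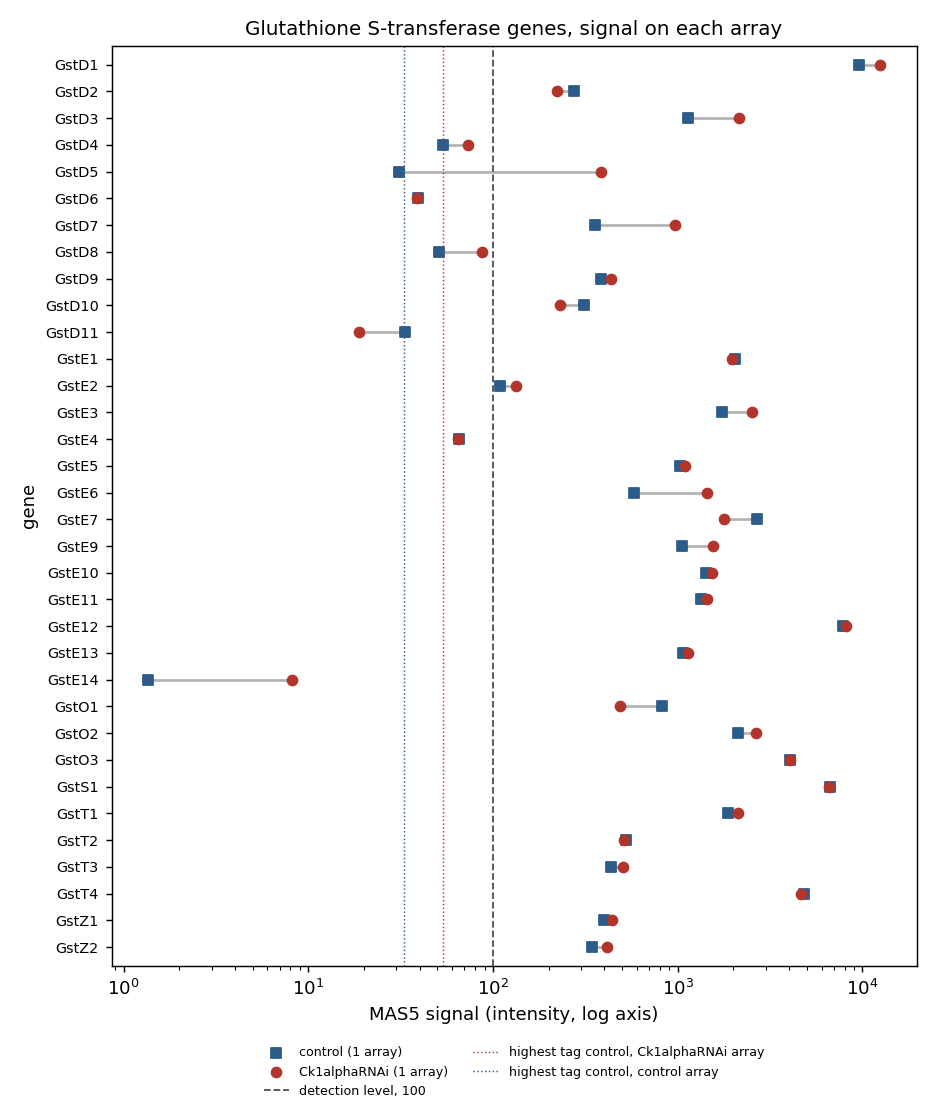
MAS5 signal (log axis) of each of the 34 Gst genes on the control array (squares) and the Ck1alphaRNAi array (circles), with the detection level of 100 (dashed) and the highest tag control of each array (dotted). Most pairs lie close together, while GstD5, GstD7 and GstE6 lie apart with the Ck1alphaRNAi signal higher, and the control signal of GstD5 is below its array's tag controls.

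Of the 34 Gst genes, 28 were detected. Of these, 3 had signals higher by at least 2-fold in Ck1alphaRNAi larvae, and 0 were lower by as much. Over all detected genes, 2.83% were higher and 6.97% lower by 2-fold. The median log2 ratio was 0.13, and 19 of the 28 had a higher signal, beside 47.7% of all detected genes. Differences were smaller than the spread between probe sets for 19 of the 28 genes (67.9%), beside 67.7% of all detected genes. The 3 genes past 2-fold belong to the delta and epsilon classes, the large groups of insect Gst genes that include enzymes acting on insecticides and lipid peroxidation products.

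The delta class held 11 genes, of which 7 were detected. The median log2 ratio of the 7 was 0.37, and 5 of them had a higher signal in Ck1alphaRNAi larvae. The signal of GstD5 was 383 in Ck1alphaRNAi larvae against 31.0 in controls. The control signal lay below the tag controls of its array, so that GstD5 was at least 11.6-fold higher in Ck1alphaRNAi larvae, where its signal passed the detection level. GstD7 gave signals of 960 (Ck1alphaRNAi) and 355 (control), a ratio of 2.71. GstD3 followed with 2134 against 1140, a ratio of 1.87 that stayed short of 2-fold. GstD1, which encodes an enzyme able to dehydrochlorinate DDT and is a widely used readout of Cnc activity, gave 12424 in Ck1alphaRNAi larvae and 9586 in controls. Its ratio of 1.30 was within the spread between probe sets. GstD10 had the lowest ratio among the 7, 0.736, with signals of 230 and 313. GstD2 was also lower in Ck1alphaRNAi larvae, with 223 against 275, while GstD9 gave 437 against 382. GstD4, GstD6, GstD8 and GstD11 were under the detection level on both arrays, with signals of 18.9 to 87.0 in Ck1alphaRNAi larvae and 33.3 to 53.6 in controls.

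The epsilon class held 13 genes with 11 detected, and most of these had nearly equal signals on both arrays. The median log2 ratio was 0.10, and 9 of the 11 had a higher signal in Ck1alphaRNAi larvae. GstE6 gave signals of 1437 (Ck1alphaRNAi) and 579 (control), a ratio of 2.48. GstE7, its neighbour on the chromosome, had the lower signal in Ck1alphaRNAi larvae, 1788 against 2690. The ratio of GstE7 was 0.665, the lowest of the class, so that neighbouring genes of the class differed in opposite directions. GstE3 (2520 against 1727) and GstE9 (1556 against 1058) had ratios of 1.46 and 1.47, both beyond the spread between probe sets but short of 2-fold. GstE1, GstE2, GstE5, GstE10, GstE11, GstE12 and GstE13 had ratios of 0.966 to 1.23. GstE12, with 8149 in Ck1alphaRNAi larvae and 7889 in controls, had a ratio of 1.03. GstE4 was not detected, with 64.7 and 65.7. A second probe set carries the symbol GstE9 but a transcript identifier that the reference gene table gives to GstE8, and its signals of 42.6 and 40.9 were below the detection level.

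GstE14, also called noppera-bo, stands apart in function. It acts in the prothoracic gland, where it is required for ecdysteroid synthesis. Its signals of 8.19 in Ck1alphaRNAi larvae and 1.36 in controls were both below the highest tag control of the array, so that no fold is given. Of the 9 other listed genes of ecdysteroid synthesis, 5 were detected, with 0 higher and 2 lower by 2-fold or more, and the median log2 ratio was -0.60. Over all detected genes, 2.83% were higher and 6.97% lower by as much. The gene shroud (sro), an enzyme of an early step, gave 4.06 in Ck1alphaRNAi larvae against 153 in controls, which makes it at least 2.87-fold lower. It passed the detection level in controls only. The cytochrome P450 gene spookier (spok) had 138 against 286 and was 2.07-fold lower. With quantile normalization, loess, a pseudocount of 16 or either stricter filter on low signals, 1 gene in place of 2 was 2-fold lower. The cholesterol trafficking gene Npc1a had the highest ratio of the 5 detected genes, 0.844, with 993 against 1176. All 5 detected genes of the list had lower signals in Ck1alphaRNAi larvae, or 4 of 5 after a loess normalization that depends on intensity. A lower signal was seen for 4698 of all 8982 detected genes. With 100 or more asked on both arrays, sro dropped out and 4 genes of the list remained, all lower.

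The omega, sigma, theta and zeta classes held 10 genes, all detected, and none reached 2-fold. The 3 omega enzymes reduce dehydroascorbate with glutathione. GstO1 had the lowest ratio among the 28 detected Gst genes, 0.593, with 487 in Ck1alphaRNAi larvae against 821 in controls. GstO2 gave 2639 against 2112, a ratio of 1.25, and its other probe set gave 703 against 664, a ratio of 1.06. GstO3 had nearly equal signals of 4028 and 4036. The omega class was therefore divided, with 1 gene lower by more than the spread between probe sets and the other 2 within it.

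GstS1, the only sigma gene and an enzyme abundant in flight muscle that conjugates the lipid peroxidation product 4-hydroxynonenal, had signals of 6593 and 6649 and a ratio of 0.992. The 4 theta genes had ratios between 0.960 and 1.15. GstT4 had the lowest, with 4654 against 4846, and GstT3 the highest, with 504 against 437. GstZ1 and GstZ2 are zeta enzymes, a class that acts as maleylacetoacetate isomerase in tyrosine breakdown. GstZ1 had signals of 439 and 399, and GstZ2 of 416 and 342. Both ratios, 1.10 and 1.22, were within the spread between probe sets.

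**Figure D2:**
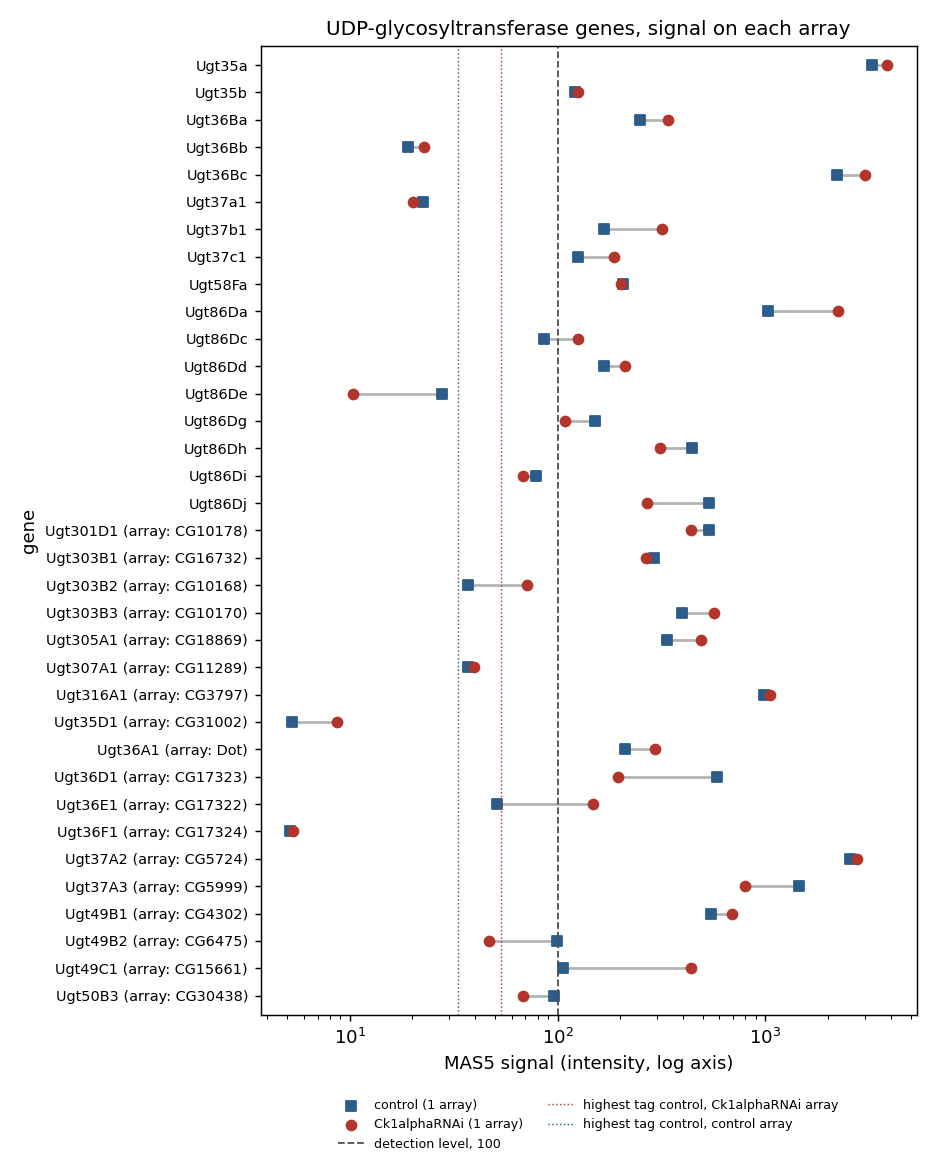
MAS5 signal (log axis) of each of 35 Ugt genes on the control array (squares) and the Ck1alphaRNAi array (circles). These are the 17 Ugt genes named as such on the array and 18 with a Ugt symbol only in the current gene table. The detection level of 100 is dashed and the highest tag control of each array dotted. Among the 17, Ugt86Da has the higher signal in Ck1alphaRNAi larvae, 2236 against 1028, and Ugt86Dj the lower one, 268 against 537. Among the 18, Ugt49C1 (437 against 106) and Ugt36E1 (148 against 51.1) are higher in Ck1alphaRNAi larvae and Ugt36D1 (196 against 584) is lower.

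Of the 17 Ugt genes, 13 were detected, 1 of them 2-fold higher and 1 lower by as much, and their median log2 ratio was 0.34. Over all detected genes, 2.83% were 2-fold higher and 6.97% lower. A higher signal in Ck1alphaRNAi larvae was seen for 9 of the 13, beside 47.7% of all detected genes. Of the 13, 4 (30.8%) differed by less than the spread between probe sets, beside 67.7% of all detected genes. Symbols are those of the array annotation, and the symbols in current use, which group the genes differently, are given in brackets where the group differs.

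The largest group was Ugt86, with 8 genes, 6 of them detected, and it held both Ugt genes that passed 2-fold. Ugt86Da (now Ugt302C1) gave 2236 in Ck1alphaRNAi larvae against 1028 in controls, a ratio of 2.17. Ugt86Dj (now Ugt304A1) gave 268 in Ck1alphaRNAi larvae against 537 in controls, and its ratio of 0.499 was barely past the threshold. With the 3 other scalings or a pseudocount of 16 it was short of 2-fold. The detected members were evenly divided, 3 higher and 3 lower in signal, and the median log2 ratio was -0.06, which changed sign to 0.10 with quantile normalization and 0.12 with loess. Ugt86Dc (now Ugt302E1) gave 125 against 85.5, a ratio of 1.46. Ugt86Dd (now Ugt35C1), a gene that has been linked to nicotine resistance in larvae, gave 211 against 167, a ratio of 1.27. Ugt86Dg (now Ugt35E1) and Ugt86Dh (now Ugt303A1) had ratios of 0.723 and 0.705, with 109 against 150 and 311 against 441. Ugt86De and Ugt86Di stayed under the detection level on both arrays. By current symbols, 3 of these 8 genes are now called Ugt302. The 2 detected ones were higher in signal in Ck1alphaRNAi larvae, but Ugt86Dc passed the detection level on that array only. The undetected one, Ugt86Di (now Ugt302K1), was lower there, with 68.2 against 78.8.

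The Ugt35, Ugt36 and Ugt37 groups had higher signals in Ck1alphaRNAi larvae in each of their 6 detected genes, with none at 2-fold. Over all detected genes, 47.7% had a higher signal. Ugt37b1 had 317 in Ck1alphaRNAi larvae and 168 in controls, a ratio of 1.89, and Ugt37c1 had 187 against 126, a ratio of 1.49. Ugt36Bc (now Ugt37D1) gave 3022 against 2216 and Ugt36Ba (now Ugt37C2) 341 against 250.0. Both of these neighbouring genes had a ratio of 1.36. These last 4 genes are all called Ugt37 by current symbols, and their median log2 ratio was 0.51, with a range of 0.45 to 0.92. Ugt36Bb (now Ugt37E1), which lies between Ugt36Ba and Ugt36Bc, and Ugt37a1 were below the tag controls on both arrays. Ugt35a gave 3832 against 3252, a ratio of 1.18, and Ugt35b, a gene known for its expression in the antenna of the adult fly, gave 126 against 121, a ratio of 1.04. By current symbols, Ugt35 also takes in Ugt86Dd and Ugt86Dg. Of its 4 detected genes 3 had a higher signal, with log2 ratios of -0.47 to 0.34. Ugt58Fa (now Ugt317A1), the only gene of its group, had signals of 201 and 206 and a ratio of 0.976.

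A further 18 genes carry a Ugt symbol in the current gene table but another name on the array, and they were read beside the 17. Of the 18, 12 were detected, with 2 higher and 1 lower by 2-fold or more and a median log2 ratio of 0.22. Over all detected genes, 2.83% were higher and 6.97% lower by as much. Ugt49C1 (CG15661 on the array) gave 437 in Ck1alphaRNAi larvae against 106 in controls, and its ratio of 4.13 was above that of every Ugt gene named as such on the array. Ugt36E1 (CG17322) had 148 against 51.1, a ratio of 2.90. It passed the detection level in Ck1alphaRNAi larvae only, and its probe set has an identifier of the type shared between transcripts. Ugt36D1 (CG17323), a neighbour of Ugt36E1, had 196 against 584, a ratio of 0.335. Ugt37A3 (CG5999) was lower with 800 against 1450, a ratio of 0.552, and Ugt37A2 (CG5724) gave 2750.5 against 2563, a ratio of 1.07. With these 2 genes, the log2 ratios of the detected genes now called Ugt37 ran from -0.86 to 0.92. Ugt36A1, known as Dorothy and expressed in the lymph gland and the heart, gave 294 against 210, a ratio of 1.40. With all 35 genes, 25 were detected, 3 were higher and 2 lower by 2-fold or more, and the median log2 ratio was 0.33. The counts given above for the 17 do not include the 18.

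**Figure D3:**
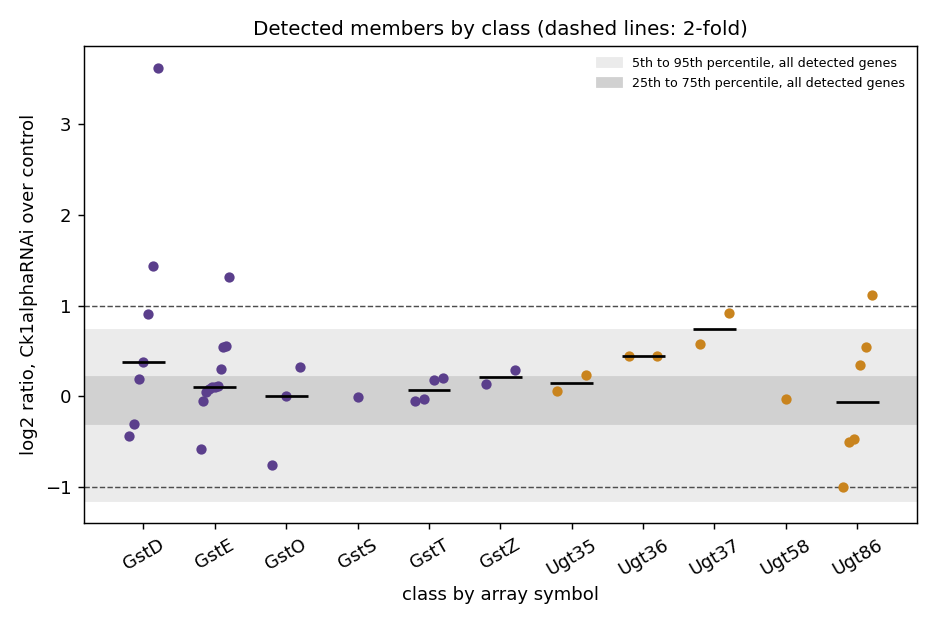
Log2 ratio of Ck1alphaRNAi over control signal for the 41 detected members by class, each point a gene and each line the class median, over bands for the 5th to 95th and 25th to 75th percentiles of all detected genes. The GstD class reaches from -0.44 to 3.63 and the Ugt86 class from -1.002 to 1.12, while the theta and zeta genes lie between -0.06 and 0.28; the highest GstD point is the quotient for GstD5, whose control signal is at background.

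Many of these genes lie in clusters of neighbours on the chromosome, and the neighbours did not share 1 ratio. The order of genes was taken from the current annotation (Release 6 plus ISO1 MT). Genes of a family were joined into a cluster also where a few other protein-coding genes lay between them, and the order counts only the family's genes. The 11 delta genes form 1 cluster on chromosome arm 3R. Their order is GstD10, GstD9, GstD1, GstD2, GstD3, GstD4, GstD5, GstD6, GstD7, GstD8 and GstD11. Log2 ratios of the 7 detected among them ran from -0.44 to 3.63. GstD3, GstD5 and GstD7, the 3 highest, alternate with GstD4, GstD6 and GstD8, which were not detected. On arm 2R, 10 epsilon genes lie together from GstE10 to GstE9, with 8 detected and log2 ratios of -0.59 to 1.31. The Ugt86D genes and the Ugt35 genes form 1 cluster of 10 on arm 3R, with 8 detected and log2 ratios of -1.002 to 1.12. Its members Ugt86Dc and Ugt86Da are next to each other in the order of Ugt genes and had ratios of 1.46 and 2.17. Ugt86Dj and Ugt86Dh, at the end of the cluster, had ratios of 0.499 and 0.705. The neighbours Ugt36D1 and Ugt36E1 on arm 2L had log2 ratios of -1.58 and 1.53, but Ugt36E1 passed the detection level in Ck1alphaRNAi larvae only.

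**Figure D4:**
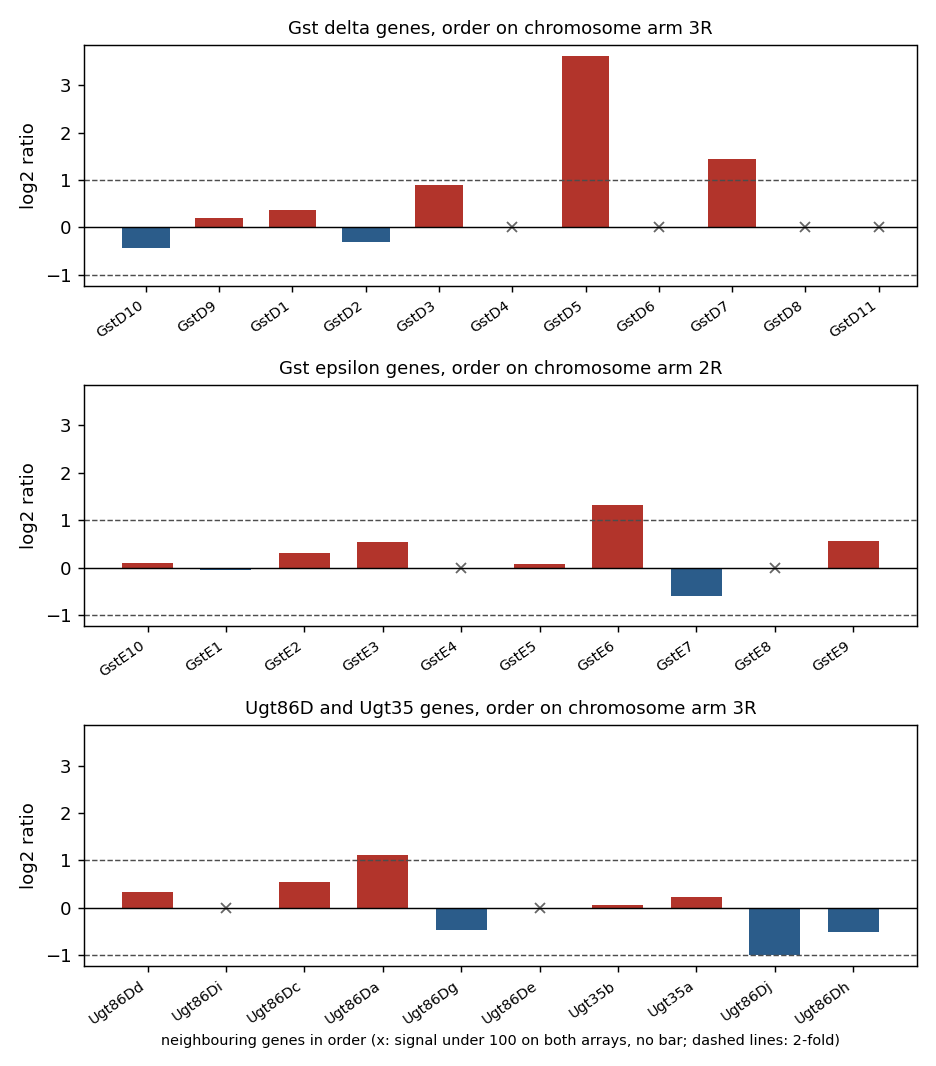
Log2 ratio of Ck1alphaRNAi over control signal for genes in their order along the chromosome, with crosses for genes under the detection level on both arrays. In each of the 3 clusters bars point both ways, from -0.44 to 3.63 (GstD), -0.59 to 1.31 (GstE) and -1.002 to 1.12 (Ugt86D and Ugt35); the bar of GstD5 is the quotient against a control signal at background.

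Paralogs within such clusters have similar sequences, and a probe set may take up transcript of a neighbour. Of the 51 probe sets used, 48 had identifiers of the unique type, 2 (GstS1 and Ugt36Bc) the type shared between transcripts, and 1 (GstZ2) the type for alternative transcripts of a gene. None listed several genes. Probe sequences were not used here, so that the extent of cross-hybridisation among the delta or epsilon genes was not tested.

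**Figure D5:**
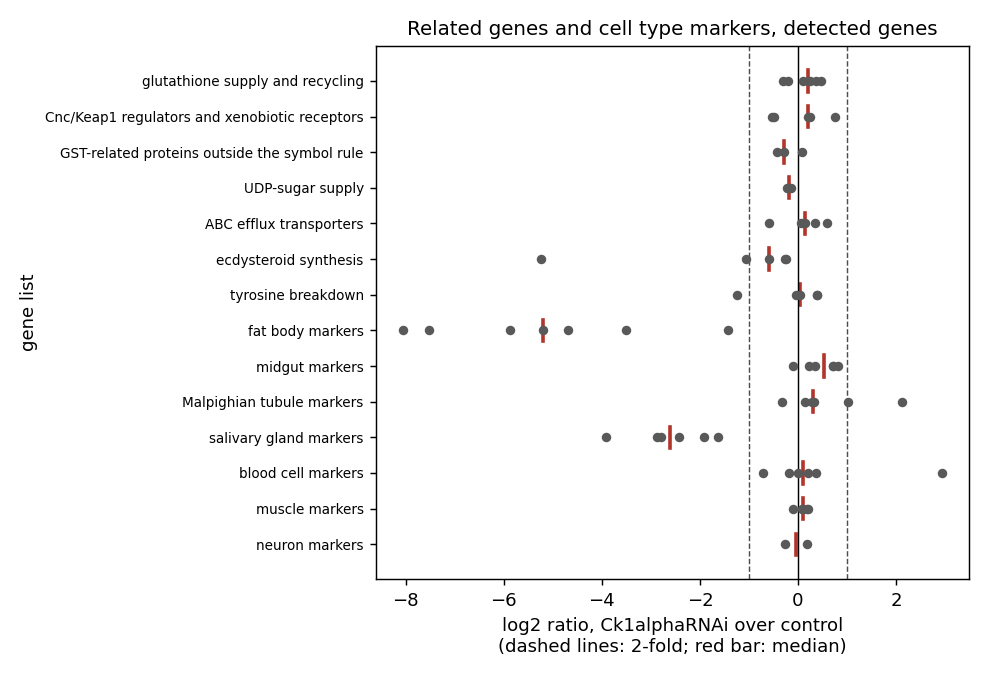
Log2 ratio of Ck1alphaRNAi over control signal for detected genes of the pathways around the Gst and Ugt enzymes and of cell type marker lists, each point a gene and each red bar the median of its list. The supply, regulator, efflux and Gst-related lists lie within 2-fold, with medians from -0.28 to 0.21. The fat body and salivary gland markers have medians of -5.20 and -2.62.

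Genes that supply or control the Gst enzymes did not pass 2-fold. Of 10 listed genes for glutathione supply and recycling, 7 were measured and detected, with 0 past 2-fold either way and a median log2 ratio of 0.20. Gclc, the catalytic subunit of glutamate-cysteine ligase, gave 3929 against 3028, and Gclm, its modifier subunit, had the lowest ratio, 0.806, with 103 against 128. Ggt-1, a gamma-glutamyl transpeptidase that breaks glutathione down, had the highest, 1.38, with 1599 against 1158. Of the 6 regulators and xenobiotic receptors, 5 were detected and 0 passed 2-fold. The transcription factor cnc gave 4924 in Ck1alphaRNAi larvae against 6950 in controls, a ratio of 0.708, and its inhibitor Keap1 gave 356 against 302. Hr96, a nuclear receptor for xenobiotics, had the highest ratio of the 5, 1.68, with 958 against 570. The lowest of the 5, 0.697, was that of tgo, the partner of the Aryl hydrocarbon receptor, with 550 against 790. Transcript levels of these regulators do not measure their activity.

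Proteins related to the Gst enzymes but outside their naming gave a median log2 ratio of -0.28 over 3 detected of 4 genes. The microsomal glutathione transferase Mgstl gave 4550 against 6160, a ratio of 0.739, and the translation factor subunit eEF1gamma, which contains a Gst-like domain, had a ratio of 1.06. CG13088, which carries the term glutathione transferase activity on the array, had 204 against 387, a ratio of 0.527. For the Ugt enzymes, all 3 detected of the 4 measured genes of UDP-sugar supply had slightly lower signals, and the lowest ratio was 0.856 for sgl, which makes UDP-glucuronic acid. Of 6 ABC transporter genes, whose products can export conjugates and drugs, 5 were detected and 0 passed 2-fold. MRP, the multidrug resistance-associated protein, gave 3785 against 2497, a ratio of 1.52, and Mdr49 gave 620 against 932, a ratio of 0.666. In the tyrosine pathway of the zeta enzymes, 1 of 5 genes was at least 2-fold lower. This was Hn (Henna), the phenylalanine hydroxylase of the first step, with 1226 against 2920, or 2.38-fold lower, while Tat had the highest ratio of that list, 1.31, with 1547 against 1184.

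The cytochrome P450 genes, a larger set whose enzymes often oxidise the compounds that Gst and Ugt enzymes then conjugate, covered a wider range. Of 83 measured, 63 were detected, with a median log2 ratio of 0.03. By 2-fold or more, 5 (7.94%) were higher and 8 (12.7%) lower, beside 2.83% and 6.97% of all detected genes. Cyp9c1 had the highest ratio, 9.14, with 1903 against 208, and Cyp4e3 the lowest, with 173 against 4877. Among the conjugating enzymes 4 of 41 were 2-fold higher and 1 of 41 was 2-fold lower. The difference between these shares was not tested, as genes are not replicates.

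Markers of tissues that express these enzymes differed between the arrays as well. The fat body markers are given above. All 6 measured Malpighian tubule markers were detected, 2 of them higher by 2-fold or more. The list had a median log2 ratio of 0.30 and a summed signal of 7784 in Ck1alphaRNAi larvae against 2955 in controls. The 2 higher ones were urate oxidase (Uro), with 5280 against 1218, and the aquaporin gene Drip, with 1339 against 656. The other 4 had ratios of 0.80 (ZnT35C) to 1.26 (Irk3). The 6 midgut markers measured had a median log2 ratio of 0.53 with 0 past 2-fold, and a summed signal of 86587 against 67401. Of the 6 blood cell markers, 1 was at least 2-fold higher, the receptor gene NimC1 with 477 against 62.6, and their summed signals of 6918 and 6979 were nearly equal. The 5 muscle markers had a median log2 ratio of 0.09 and a summed signal of 81143 against 73938, and of the 4 neuron markers 3 were measured and 2 detected, with 800 against 825 in sum. No measured marker of fat body, midgut, Malpighian tubule or blood cells was at 0 or below the highest tag control on either array. The part of tissue makeup or of developmental stage in the ratios of the Gst and Ugt genes was not tested.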

How the data were processed

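Members and gene lists were chosen with earlier results of these data known. The authors deposited a MAS5 signal intensity for each probe set on each array (MAS5, version 5, in the submitters' processing notes) and a fold, the ratio of both signals, which as the authors' own comparison was not used. The series' value table held the same intensities. Both arrays had a trimmed mean of 500.02, with 2% of values left out at each end, so that the deposited values were already scaled. Detection calls, the scaling target and the genome build were not given in the sources used. No coordinates are printed.

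Probe sets were assigned to genes by the symbols of the annotated table and, where several names were given, by the reference gene table (Release 6 plus ISO1 MT), in which all 51 members were found. A gene with several probe sets was represented by the brightest, averaged over both arrays. Detection asked for a signal of 100 or more on either array, and log2 ratios were taken without a pseudocount. Classes follow the letter or number of the symbol on the array. Grouping by current Ugt symbols was added after seeing the data. Genes were named if at least 2-fold different, if highest or lowest in their class or list, or if alone in a class; further genes were fixed by name, and the remaining members, the genes of current Ugt symbols and CG13088 were named after their values were seen. With 1 array per group, the number of arrays limits the precision and no test was made. Alternatives were 3 other scalings, a pseudocount of 16, a median over probe sets, 3 other filters on low signals, leaving out cross-hybridising probe sets, the series' value table and adding members by current symbol. Promoter motifs were not analysed here. The value of 1 gene that the naming rule selects is not reported here. The computation was tested on simulated data. Tables were read with pandas 2.3.3 and numpy 2.4.6 under Python 3.11.15, trimmed means came from scipy 1.17.1, the loess from statsmodels 0.14.6 and the plots from matplotlib 3.10.9.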

Additional observations from a re-analysis of the deposited data

How the results depend on the processing

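The family medians kept their direction under all 11 alternatives, and the 5 members past 2-fold under those that gave them a value, which the filter at 100 on both arrays did not for GstD5. In such settings 4 of the 5 also stayed past 2-fold. The exception was Ugt86Dj, whose log2 ratio of -1.002 became -0.98 with median centring, -0.96 with quantile normalization, -0.99 with loess and -0.96 with a pseudocount of 16, so that the Ugt family and the Ugt86 class then held 0 genes at least 2-fold lower. Without a filter on low signals both held 2, since Ugt86De enters with signals below the tag controls, and the GstE class held 2 higher genes, since GstE14 enters in the same way. With quantile normalization Ugt37b1 reached a log2 ratio of 1.01, so that the Ugt family held 2 higher genes and the Ugt37 class 1. Asking for 100 or more on both arrays left 1 higher gene in the GstD class, because GstD5 is left out. The log2 ratio of GstD5 was 3.09 with the pseudocount. Adding the genes with current Ugt symbols gave 3 higher and 2 lower genes in the Ugt family, and 1 higher and 1 lower in the Ugt36 class. Over all detected genes, 254 were higher and 626 lower, a share of 28.9% higher, against 435 lower and 41.1% higher with loess, 738 higher and 1387 lower without a filter, and 162 higher and 328 lower with 100 on both arrays. Medians near 0 changed sign for the Ugt86 class (-0.47 to 0.12 over the settings) and the GstO class (-0.07 to 0.02). Among the lists and markers, whose alternatives were chosen after seeing the data, the genes of ecdysteroid synthesis at least 2-fold lower were 1 instead of 2 with quantile normalization, loess, the pseudocount and the filters at 100 on both arrays and at 200. With 100 on both arrays 4 fat body markers were 2-fold lower, with a median of -4.35, and 0 blood cell markers were higher, and without a filter 1 gene related to the Gst enzymes was higher. The detected members GstE12, GstO3, GstS1 and Ugt58Fa, all near equal signals, changed sign in some setting. No paired analysis was possible because there is 1 array per group. The promoter motif count was not run. Without replicate arrays, no ratio here can be separated from variation between pools of larvae.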
